A study of Mus musculus with 8 samples.

Results

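Fibroblast growth factor (FGF) signalling in mouse dorsal skin was followed through 8 genes, the ligands Fgf5, Fgf7, Fgf10, Fgf18 and Fgf2 and the receptors Fgfr1, Fgfr2 and Fgfr3. They were taken by symbol, a rule that uses no measured value, from the 31053 genes listed for every library, and each symbol matched once. The set itself was chosen with earlier results of these data known. All animals were female BALB/c mice aged 14 to 16 weeks, whose dorsal skin had been given either PBMCsec, the factors that mononuclear blood cells release after irradiation, or a vehicle control by subcutaneous injection. Punches of skin 4 mm wide were dissociated and single-cell RNA sequencing (scRNAseq) libraries were made from the 3' ends of transcripts, 4 after PBMCsec and 4 after vehicle. The study's methods describe injection into scars of excision wounds and collection at more than one time, with salt solution or medium as control, and the labels tie no library to any of these, so the libraries of a group may differ in them. Whether each library came from its own mouse is not given in the labels, so the p-values measure the spread between these samples, which may be technical.

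FGFs are secreted proteins that bind receptor tyrosine kinases together with heparan sulphate chains of the cell surface and matrix, and the bound receptor signals through adaptor proteins to the MAP kinase cascade, which induces its own inhibitors. In skin, Fgf7 and Fgf10 are known as dermal ligands of the epithelial splice form of Fgfr2, Fgf5 as the signal that ends hair growth, Fgf18 as a ligand of the resting follicle, and Fgf2 as a mitogen of fibroblasts that lacks a classical signal peptide. Each receptor gene gives an epithelial and a mesenchymal splice form, and counts taken at the 3' end do not tell these forms apart.

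The 8 genes lie on 7 mouse chromosomes as annotated by GENCODE on GRCm38, with Fgf5 at chr5:98254184-98277030 and Fgfr3 at chr5:33721674-33737068, both on the plus strand. Fgf7 spans chr2:126034658-126091185 and Fgf10 spans chr13:118669791-118792115, also on the plus strand, the strand of Fgf2 at chr3:37348346-37410108 and of Fgfr1 at chr8:25513654-25575718. Fgf18 at chr11:33117430-33147400 and Fgfr2 at chr7:130162451-133123350 lie on the minus strand. The GENCODE span of Fgfr2, 2960900 bases long, runs over many other genes, and the RefSeq start of Fgfr2 lies inside it. Genes on the opposite strand overlap exons of Fgf7 (Fam227b), Fgf10 (Gm16263), Fgf2 (Nudt6 and Fgf2os), Fgfr1 (Gm16159) and Fgfr3 (G630022F23Rik). Gm43439 overlaps exons of Fgf2 on the same strand and Ctbp2 those of Fgfr2, and how reads in such overlaps were assigned is not given in the sources used here. The 250 bases before the annotated start are shown for 3 ligands, Fgf7 and Fgf10 because the same fibroblast cluster had the most of both, and Fgf5 because it was the one ligand counted mainly in epithelium. Sequences are from RefSeq on GRCm38.p6, 5' to 3' on the plus strand, the strand of all 3 genes, and capitals mark motif matches.
Fgf7, chr2:126034408-126034657: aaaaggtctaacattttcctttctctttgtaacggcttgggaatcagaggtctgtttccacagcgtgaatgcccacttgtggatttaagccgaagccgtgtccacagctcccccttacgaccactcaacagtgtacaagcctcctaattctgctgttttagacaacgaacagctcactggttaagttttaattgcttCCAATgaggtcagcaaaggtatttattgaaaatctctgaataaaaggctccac
Fgf10, chr13:118714449-118714698: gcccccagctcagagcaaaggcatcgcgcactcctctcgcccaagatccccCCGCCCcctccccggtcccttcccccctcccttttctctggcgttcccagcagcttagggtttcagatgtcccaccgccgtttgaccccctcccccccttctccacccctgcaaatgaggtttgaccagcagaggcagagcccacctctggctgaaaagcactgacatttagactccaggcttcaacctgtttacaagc
Fgf5, chr5:98253934-98254183: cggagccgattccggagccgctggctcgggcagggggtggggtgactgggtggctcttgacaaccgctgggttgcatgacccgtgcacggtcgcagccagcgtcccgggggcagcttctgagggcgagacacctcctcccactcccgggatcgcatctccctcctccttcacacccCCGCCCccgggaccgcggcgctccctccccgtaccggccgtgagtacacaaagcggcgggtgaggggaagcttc
The Fgf7 window held CCAAT on the gene's strand 53 to 49 bases before the start. The GC box GGGCGG was found on the other strand, 199 to 194 bases before the start of Fgf10 and 74 to 69 bases before that of Fgf5. Of 32851 promoters of the same length, searched on both strands, 33.8% held CCAAT and 32.7% held GGGCGG, so each match is a common one. None of TATAAA (12.4% of promoters), CTTTGA (13.8%) and TGANTCA (6.75%) was found in these 3 windows. GC content was 43.6% before Fgf7, 61.2% before Fgf10 and 70.8% before Fgf5, against a median of 52.4%. Of the 8 genes, 7 matched the promoter table. The Fgf10 start in RefSeq lies inside the GENCODE span of the gene.

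Total counts of unique molecular identifiers (UMIs) ranged from 18578561 to 37880651 in the PBMCsec libraries and from 14753926 to 33333619 in the vehicle libraries. The study's limits on genes, UMIs and mitochondrial share kept 6150 cells out of 26231 barcodes, and 16900 barcodes were over the mitochondrial limit of 5%. Vehicle libraries 1 and 2 stood apart in size, with 151 and 208 kept cells against 313 to 1659 in the others, and with 31 and 27 fibroblasts (FBs). The cells formed 34 clusters, and 7 FB clusters held 1556 cells while 12 epithelial clusters, of keratinocytes (KCs) and hair follicle cells (HFs), held 2859. The FGF genes were left out of the genes used for clustering, and each named cluster had at least 3 detected markers of its class. Only 4 barcodes occurred in more than 1 library.

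**Figure D1:**
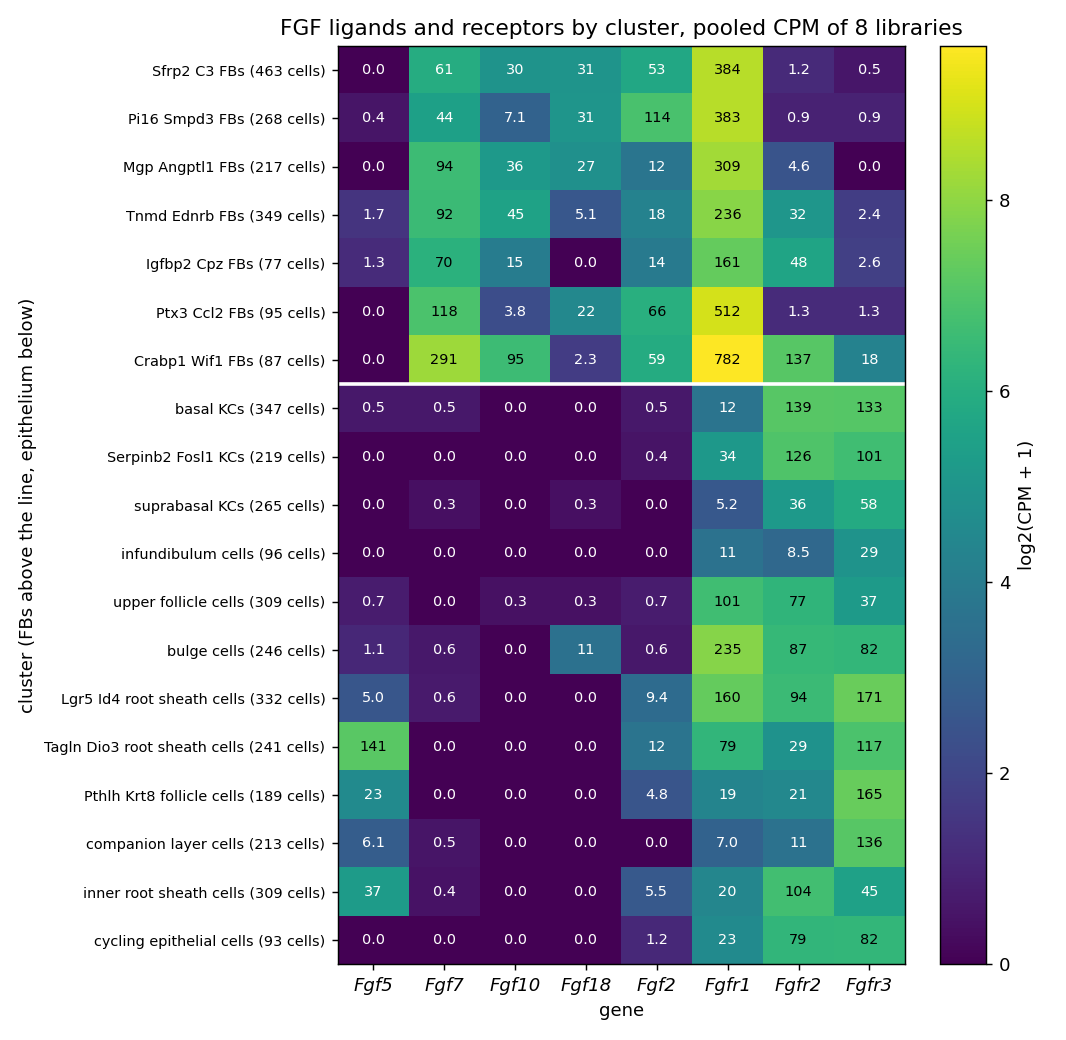
Pooled level of the 8 genes in each fibroblast (above the white line) and epithelial cluster, in UMIs of the gene per 1000000 UMIs of the cluster over 8 libraries (CPM, printed in each cell, colour as log2(CPM + 1)). Fgf7 and Fgf10 are highest in the Crabp1 Wif1 FBs at 291 and 94.6 CPM, and Fgf5 in the Tagln Dio3 root sheath cells at 141 CPM.

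The levels of the 8 genes differed between FBs and epithelium. Fgf7, Fgf10, Fgf18, Fgf2 and Fgfr1 were higher in FBs, while Fgf5, Fgfr2 and Fgfr3 were higher in epithelium. Of the 8 genes, 6 passed the filter on low counts and were called at an adjusted p under 0.05 (edgeR quasi-likelihood test over 9982 genes, library as a block), 4 of them higher in FBs and 2 higher in epithelium. Fgf7, Fgf10 and Fgf2 passed the filter through their counts in FBs and Fgfr3 through its counts in epithelium. A difference of these genes was thus set in part by the filter. Their calls, and the adjusted p-values given for them below, are a description only. Fgfr1 and Fgfr2 had enough counts in both classes. As background, 68.6% of all genes tested differed between these 2 classes, 33.8% with more in FBs and 34.9% with more in epithelium. The share of all genes whose library levels lay apart between these classes was not counted. How common the gaps given below are is therefore not known. Each class had been named from marker genes that did not include the FGF genes.

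Fgf7 lay at 57.8 CPM in the lowest library, 72.0 in the median and 145 in the highest in the FB sums, and at 0, 0.191 and 1.06 CPM in the epithelial sums. It was higher in the FBs of 8 of 8 libraries, with a log2 difference of 7.94 ± 0.23 (SE, edgeR adjusted p = 1.56e-11). Only 8 of its UMIs fell in epithelial cells, against 1103 in FBs. Fgf10 lay at 19.3, 25.1 and 137 CPM in the FBs (lowest, median and highest library), with 408 UMIs in all, and 1 UMI was counted over all epithelial cells. The ratio of pooled levels was therefore 840.1, with a 95% counting interval of 149.9 to 33261. Counting intervals cover counting error only. For both dermal ligands, no epithelial library reached the lowest FB library, a gap that was not counted over all genes.

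Fgf18 ranged from 5.05 CPM over a median of 20.7 to 38.6 CPM in the FB sums, and from 0 over 0.567 to 1.56 CPM in epithelium. It did not pass the filter on low counts. With no filter, its log2 difference was 4.64 ± 0.33 (SE, edgeR adjusted p = 1.50e-10), in the same direction in 8 of 8 libraries. Fgf2 lay at 22.6, 48.2 and 108 CPM in the FBs (lowest, median, highest) and at 1.06, 3.46 and 6.77 CPM in epithelium. The difference of Fgf2 was 3.98 ± 0.20 on the log2 scale (SE, edgeR adjusted p = 1.26e-09), smaller than that of Fgf7. FBs and epithelium did not overlap, a gap also not counted over all genes.

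Fgf5 was the exception among the ligands. It was at 0 in the FBs of 6 of 8 libraries, with 7 FB UMIs in all, and had 491 UMIs in epithelium. Its epithelial level ran from 0 in vehicle library 2 to 33.4 CPM in vehicle library 3, with a median of 7.69 CPM. The ratio of pooled levels was 34.1 in favour of epithelium (95% counting interval 16.4 to 85.2), and 7 of 8 libraries had that direction. Like Fgf18, Fgf5 missed the filter, and with no filter its log2 difference, FBs minus epithelium, was -4.54 ± 0.53 (SE, edgeR adjusted p = 3.84e-07).

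Among the receptors, Fgfr1 lay at 268, 357 and 521 CPM in the FBs (lowest, median, highest library) and at 44.0, 59.3 and 108 CPM in epithelium, a log2 difference of 2.51 ± 0.18 (SE, edgeR adjusted p = 4.72e-08). Both classes thus had clear counts of Fgfr1, with 4699 UMIs in FBs and 1690 in epithelium. Fgfr2, the receptor of Fgf7 and Fgf10 in its epithelial form, was at 9.61, 14.7 and 31.7 CPM in FBs and at 46.3, 73.2 and 128 CPM in epithelium, a log2 difference of -2.24 ± 0.15 (SE, edgeR adjusted p = 2.83e-08). Fgfr3 was at 0, 1.503 and 15.4 CPM in FBs and at 49.1, 92.1 and 165 CPM in epithelium, a log2 difference of -5.74 ± 0.31 (SE, edgeR adjusted p = 2.77e-09). For all 3 receptors, the direction was the same in 8 of 8 libraries and the library levels did not overlap between the classes. The share of all genes for which this held was not counted. The FB counts of Fgfr3 came to 22 UMIs against 2793 in epithelium. Its adjusted p is a description only, as are those of Fgf7 and Fgf2.

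**Figure D2:**
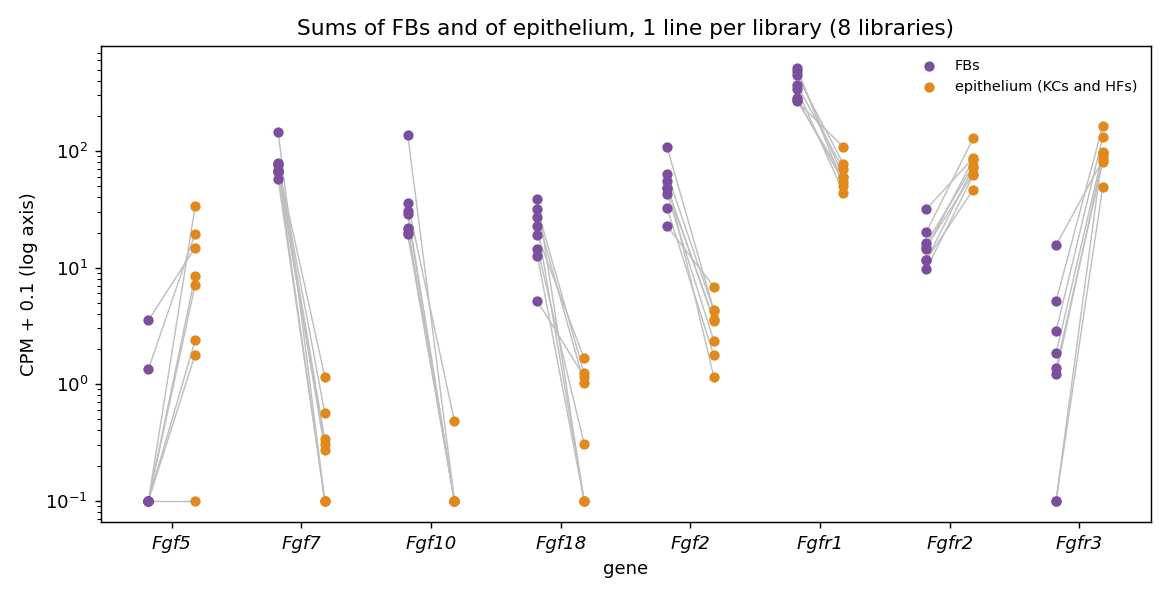
Level of each gene in the summed FBs (purple) and summed epithelium (orange) of each of the 8 libraries, as CPM + 0.1 on a log axis, with a grey line joining the sums of 1 library. Fgf7, Fgf10, Fgf18, Fgf2 and Fgfr1 fall from left to right in 8 of 8 libraries, Fgfr2 and Fgfr3 climb in 8 of 8 and Fgf5 in 7 of 8.

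The share of cells with at least 1 UMI depends on depth, so each cell was also thinned to 1000 UMIs. Of 1556 FBs (median 8726 UMIs), 40.2% had an Fgf7 UMI, or 7.16% of 1551 FBs after thinning. In T cells and other lymphoid cells (TCs), taken as a class that should lack these genes, 0 of 747 cells (median 3315 UMIs) had one, which allows a share of up to 0.402%. Fgf10 was seen in 16.7% of FBs (3.87% thinned), Fgf18 in 14.1% (1.74% thinned) and Fgf2 in 28.1% (4.19% thinned), against 0, 0 and 0.803% of TCs (0, 0 and 0 thinned). Fgf5 was seen in 11.4% of 1839 HFs (median 9442 UMIs, 2.45% thinned), in 0.216% of KCs and in 0 of the TCs. Fgfr1 was seen in 84.4% of FBs (28.05% thinned) against 0.803% of TCs (0.404% thinned). Fgfr2 was seen in 51.3% of 927 KCs (median 11108 UMIs, 8.64% thinned) and Fgfr3 in 45.6% of HFs (8.92% thinned), each against 0.402% of TCs (0.135% and 0 thinned). The shares of Fgf7, Fgf10, Fgf18, Fgf2 and Fgfr1 in FBs, of Fgf5 and Fgfr3 in HFs and of Fgfr2 in KCs were above the share in TCs before and after thinning, while that of Fgf5 in KCs lay under the limit of 0.402%.

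The order of levels over 6 cell classes was tested within libraries, with an exact two-sided sign-flip permutation test between neighbours. Of 33 neighbouring pairs, 13 had an unadjusted p under 0.05, and the smallest p that 8 libraries allow is 0.00781. With 6 libraries it is 0.0313. Neighbours were set by the mean levels in the same libraries. Adjusted over the 33 pairs, only pairs with an exact p of 0.00781 stayed under 0.05, at 0.0430. FBs were the highest class for Fgf7, Fgf10, Fgf18 and Fgf2, each above the next class in 8 of 8 libraries (exact p = 0.00781 for each). Below FBs, neighbouring classes did not differ beyond their spread for these 4 ligands, with exact p values from 0.0938 to 1, and classes farther apart in the order were not tested. HFs were the highest class for Fgf5, at a mean of 17.8 ± 16.2 CPM (SD, n = 8), above FBs in 7 of 8 libraries (exact p = 0.0156). KCs had an Fgf5 mean of 0.127 CPM, from 2 UMIs.

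The receptors had longer orders. Fgfr1 descended from FBs (mean 375 ± 101 CPM, SD, n = 8) over endothelial cells (ECs, 140.4 ± 66.9 CPM, n = 6) and HFs (105 ± 31.6 CPM, n = 8) to dendritic cells and macrophages (51.8 ± 28.5 CPM, n = 8), KCs (16.0 ± 9.92 CPM, n = 8) and TCs (2.21 ± 3.69 CPM, n = 8). ECs and HFs did not differ beyond their spread (exact p = 0.219), and the other 4 steps had exact p values from 0.0156 to 0.0313. Adjusted over all pairs, these were 0.0573 to 0.0793. Fgfr2 stepped down from KCs (100.5 ± 34.7 CPM, n = 8) over HFs (62.4 ± 20.8 CPM, n = 8) to FBs (16.3 ± 7.06 CPM, n = 8), with exact p = 0.00781 for either step and each step in 8 of 8 libraries. FBs were in turn above ECs for Fgfr2 in 6 of 6 libraries (exact p = 0.0313). Fgfr3 in HFs (98.9 ± 50.5 CPM, n = 8) and KCs (98.0 ± 27.5 CPM, n = 8) did not differ beyond its spread, with a mean difference of 0.884 ± 42.7 CPM (SD, exact p = 0.953), and both stood far above ECs (7.94 CPM, exact p = 0.0313 for KCs against ECs).

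Within the FBs, the ligands were spread over different clusters, which are named here by leading genes and described without a test because clusters were drawn from the same cells. The Crabp1 Wif1 FBs, in which the fixed marker list of dermal sheath and papilla led, had the highest mean Fgf7, at 236 ± 90.1 CPM (SD, n = 3 libraries with at least 10 of these cells), and 129 of 1121 Fgf7 UMIs came from these 87 cells. They were above the next cluster, the Mgp Angptl1 FBs (99.5 ± 29.7 CPM, n = 6), in 3 of 3 libraries. Fgf7 was found in every FB cluster, with the lowest mean in the Pi16 Smpd3 FBs (47.9 ± 18.4 CPM, n = 5). Fgf10 was again highest in the Crabp1 Wif1 FBs (97.3 ± 27.5 CPM, n = 3), above the next cluster in 3 of 3 libraries. It stood at 41.3 ± 8.63 CPM in the Tnmd Ednrb FBs (n = 6) and at 6.504 ± 5.75 CPM in the Pi16 Smpd3 FBs (n = 5). In the Sfrp2 C3 FBs, 1 library set the Fgf10 mean, with 244 CPM in PBMCsec library 2 and 13.6 to 27.97 CPM in the other 5 libraries with at least 10 of these cells.

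Fgf18 and Fgf2 had other leading FB clusters. Fgf18 was at 31.9 ± 16.7 CPM in the Pi16 Smpd3 FBs (SD, n = 5), 30.5 ± 10.02 CPM in the Sfrp2 C3 FBs (n = 6) and 26.4 ± 17.1 CPM in the Mgp Angptl1 FBs (n = 6), and these 3 did not differ beyond 1 SD of the within-library difference. Only 1 Fgf18 UMI was counted in the Crabp1 Wif1 FBs and none in the 77 Igfbp2 Cpz FBs. Fgf2 was highest in the Pi16 Smpd3 FBs, at 111 ± 32.0 CPM (SD, n = 5), and 53.7% of those cells had an Fgf2 UMI. They were above the Crabp1 Wif1 FBs (67.5 ± 18.3 CPM, n = 3) in 3 of 3 libraries, by less than 1 SD of the difference. The Mgp Angptl1 FBs were lowest, at 9.81 ± 9.20 CPM (n = 6). Among the 6 FB clusters with at least 3 such libraries, the one with the lowest mean of Fgf7 thus had the highest mean of Fgf2.

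In the follicle, Fgf5 was concentrated in the Tagln Dio3 root sheath cells, which held 316 of the 499 Fgf5 UMIs in kept cells (63.3%). Their level was 53.7, 115 and 109.7 CPM in PBMCsec libraries 1, 3 and 4 and 209.8 and 94.5 CPM in vehicle libraries 3 and 4, the 5 libraries with at least 10 of these cells. The mean was 117 ± 57.4 CPM (SD, n = 5), and the spread between libraries was wide. Fgf5 was among the leading genes of this cluster although it had no part in the clustering. The Pthlh Krt8 follicle cells followed at 24.3 ± 17.8 CPM (n = 5), lower in 4 of 4 libraries with at least 10 cells of either cluster. In inner root sheath cells, 89 of 96 Fgf5 UMIs came from vehicle library 3 (65.6 CPM), 7 came from vehicle library 4 (21.7 CPM), and the other libraries were at 0. The epithelial Fgf18 UMIs were also concentrated, with 20 of 22 in bulge cells (9.20 ± 8.47 CPM, SD, n = 5). Fgf2 in epithelium was highest in the Tagln Dio3 root sheath cells, at 16.3 ± 11.3 CPM (SD, n = 5), beside 17.6 ± 10.1 CPM in the Igfbp2 Cpz FBs (n = 3).

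**Figure D3:**
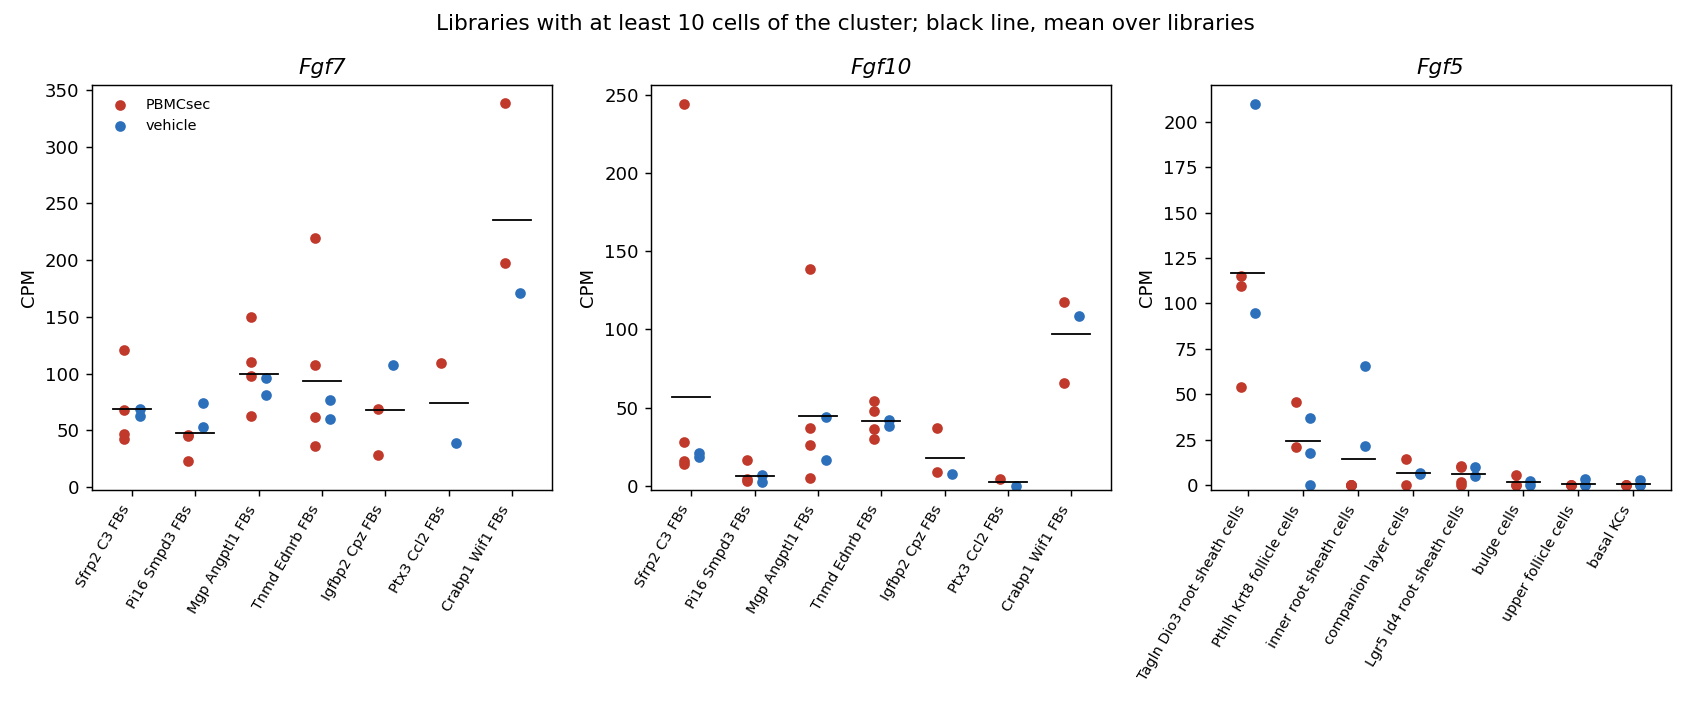
CPM of Fgf7 and Fgf10 in FB clusters and of Fgf5 in epithelial clusters, with 1 point for each library with at least 10 cells of the cluster (PBMCsec red, vehicle blue) and a black line at the mean. The Crabp1 Wif1 FBs have the highest means of Fgf7 (236 CPM) and Fgf10 (97.3 CPM), the Tagln Dio3 root sheath cells that of Fgf5 (117 CPM), and 1 PBMCsec point at 244 CPM stands alone for Fgf10 in the Sfrp2 C3 FBs.

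The receptors divided the clusters in another way. Fgfr1 was highest in the Crabp1 Wif1 FBs, at 672 ± 177 CPM (SD, n = 3), above the next cluster in 3 of 3 libraries, and lowest among FBs in the Igfbp2 Cpz FBs, at 123 ± 33.9 CPM (n = 3). In epithelium, it was led by bulge cells (229.7 ± 35.4 CPM, n = 5), then the Lgr5 Id4 root sheath cells (177 ± 54.1 CPM, n = 6) and upper follicle cells (96.9 ± 17.4 CPM, n = 6), each step larger than 1 SD of the within-library difference. The mean of bulge cells was thus above that of the FB cluster with the least Fgfr1.

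Fgfr2 was highest in epithelium in basal KCs, at 146 ± 24.4 CPM (SD, n = 6), above the Serpinb2 Fosl1 KCs (128 ± 14.95 CPM, n = 6) in 6 of 6 libraries, and suprabasal KCs were at 38.3 ± 6.21 CPM (n = 5). Among FBs, the Crabp1 Wif1 cluster had a mean of 150.1 ± 43.4 CPM (n = 3), and its 87 cells gave 61 of the 213 Fgfr2 UMIs of FBs. The Igfbp2 Cpz FBs (44.9 ± 7.34 CPM, n = 3) and the Tnmd Ednrb FBs (37.9 ± 25.6 CPM, n = 6) came next, and pooled levels were 1.21 CPM in the Sfrp2 C3 FBs, 0.882 CPM in the Pi16 Smpd3 FBs and 1.27 CPM in the Ptx3 Ccl2 FBs. Fgfr3 had its highest epithelial means in the Pthlh Krt8 follicle cells (211 ± 124 CPM, n = 5) and the Lgr5 Id4 root sheath cells (166 ± 64.0 CPM, n = 6), over unlike sets of libraries. In the 4 libraries with at least 10 cells of both, the Pthlh Krt8 cells were the higher in only 1. Their mean difference from the Lgr5 Id4 cells was -27.9 ± 36.5 CPM there (SD), less than 1 SD. Basal KCs were at 138 ± 16.4 CPM (n = 6). Suprabasal KCs (58.3 ± 6.12 CPM, n = 5) and infundibulum cells (30.7 ± 16.3 CPM, n = 5) were lower, so both Fgfr2 and Fgfr3 were higher in basal than in suprabasal KCs.

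Cell numbers and depth differed between these clusters. The Crabp1 Wif1 FBs had a median of 4852 UMIs per cell against 8726 in all FBs, made up from 0.319% to 3.57% of the kept cells of a library, and had at least 10 cells in 3 libraries. The Tagln Dio3 root sheath cells made up 0.639% to 6.95%. The part of these numbers in the levels was not tested.

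The effect of PBMCsec was tested on the sums of FBs and of epithelium. No gene passed an adjusted p under 0.05 in FBs (0 of 9572 with edgeR, 0.00%, and 0 with DESeq2 and with limma) or in epithelium (0 of 10928 with edgeR, 0.00%, 0 with limma and 1 with DESeq2). At an unadjusted edgeR p under 0.05, 181 genes (1.89%) were found in FBs and 165 (1.51%) in epithelium. In simulated counts of the same groups, 17.0% of genes changed 2-fold were called in FBs and 18.2% in epithelium. The lack of calls therefore does not show that there was no effect. None of the 6 FGF genes tested in FBs and none of the 5 tested in epithelium passed the adjusted threshold, and the adjusted p was 1 for each of them.

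Fgf7 stood at 145, 67.7, 68.4 and 77.3 CPM in the FBs of PBMCsec libraries 1 to 4 and at 57.8, 75.7, 78.5 and 66.6 CPM in those of vehicle libraries 1 to 4. PBMCsec library 1 lay above the rest, and the other 3 PBMCsec libraries were within the range of the vehicle libraries. The log2 difference, PBMCsec minus vehicle, was 0.43 ± 0.28 (SE), and 0.10 without PBMCsec library 1. Fgf10 stood at 35.6, 137, 21.8 and 21.2 CPM after PBMCsec and at 19.3, 30.3, 28.5 and 19.9 CPM after vehicle, a log2 difference of 1.06 ± 0.59 (SE). The groups overlapped, and PBMCsec library 2 carried most of the difference. Without it the log2 difference was 0.17, and it was -0.11 in the libraries numbered 3 and 4 alone. In PBMCsec library 2, 85 Fgf10 UMIs came from 36.2% of 69 FBs, with 244 CPM in its Sfrp2 C3 FBs and 139 CPM in its Mgp Angptl1 FBs.

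Fgf18 stood at 31.7, 22.6, 18.8 and 12.5 CPM in the FBs after PBMCsec and at 38.6, 5.05, 27.1 and 14.4 CPM after vehicle, and the log2 difference was 0.04 ± 0.39 (SE), or -0.32 in the libraries numbered 3 and 4 alone. Fgf2 stood at 48.4, 22.6, 42.7 and 48.0 CPM after PBMCsec and at 108, 55.5, 63.9 and 32.3 CPM after vehicle, a log2 difference of -0.47 ± 0.33 (SE), or -0.19 without vehicle library 1 and -0.75 without vehicle library 4. The groups overlapped for both ligands, and vehicle library 1, with 31 FBs, had the highest value of each. Fgf5 in epithelium stood at 2.27, 1.69, 6.95 and 19.5 CPM after PBMCsec and at 8.42, 0, 33.4 and 14.7 CPM after vehicle, a log2 difference of -0.88 ± 0.76 (SE), or -0.066 without vehicle library 3 and -1.84 without PBMCsec library 4. In either group the libraries numbered 3 and 4 had the highest levels, and the groups overlapped. The shares of Tagln Dio3 root sheath cells were 2.28%, 0.639%, 1.91% and 6.95% of kept cells after PBMCsec and 1.32%, 1.44%, 5.61% and 5.05% after vehicle, and their part in the Fgf5 levels was not tested.

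Fgfr1 stood at 448, 268, 371 and 284 CPM in the FBs after PBMCsec and at 521, 489.7, 273 and 342 CPM after vehicle, a log2 difference of -0.16 ± 0.26 (SE), or 0.17 in the libraries numbered 3 and 4 alone, and was -0.33 when vehicle library 3 was left out and -0.028 when vehicle library 2 was. In epithelium it stood at 77.1, 108, 69.7 and 53.7 CPM after PBMCsec and at 50.5, 59.3, 59.3 and 44.0 CPM after vehicle, a log2 difference of 0.58 ± 0.24 (SE, edgeR unadjusted p = 0.0358, adjusted p = 1). Without PBMCsec library 2 it was 0.39. In epithelium 3 of the 4 PBMCsec libraries were above all vehicle libraries, and PBMCsec library 4 was within their range. Fgfr2 stood at 31.7, 16.1, 14.4 and 14.95 CPM in the FBs after PBMCsec and at 11.6, 20.2, 11.5 and 9.61 CPM after vehicle, a log2 difference of 0.81 ± 0.37 (SE, edgeR unadjusted p = 0.0470, adjusted p = 1). PBMCsec library 1 had the highest value and vehicle library 2, with 27 FBs and 4 Fgfr2 UMIs, the next. Leaving out the Crabp1 Wif1 FBs, the groups no longer overlapped, with 10.3 to 18.1 CPM after PBMCsec and 6.18 to 9.06 CPM after vehicle. These values rest on 152 UMIs in all. Vehicle libraries 1 and 2 had only 28 and 20 such FBs and few of the UMIs, so the gap hangs on few counts. In all FBs, 0.219% of the genes tested lay apart with PBMCsec higher (2.04% in either direction), and this share was not counted without the Crabp1 Wif1 FBs. Without PBMCsec library 1 the log2 difference of Fgfr2 in all FBs was 0.44. In epithelium Fgfr2 stood at 87.0, 74.5, 84.3 and 63.8 CPM after PBMCsec and at 46.3, 128, 71.8 and 61.6 CPM after vehicle, a log2 difference of 0.04 ± 0.29 (SE).

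Fgfr3 in epithelium stood at 88.1, 49.1, 80.7 and 99.0 CPM after PBMCsec and at 84.2, 165, 96.2 and 133 CPM after vehicle, a log2 difference of -0.54 ± 0.28 (SE, edgeR unadjusted p = 0.0771, adjusted p = 1), or -0.32 without vehicle library 2. The groups overlapped, where 1.13% of all genes tested in epithelium had vehicle libraries above all PBMCsec libraries, and vehicle libraries 2 and 4 were the highest. In FBs, where it did not pass the filter, Fgfr3 was at 1.11, 0, 1.27 and 0 CPM after PBMCsec and at 15.4, 5.05, 1.74 and 2.74 CPM after vehicle. These groups did not overlap, as for 1.82% of all genes tested in FBs with vehicle higher, but the values rest on 22 UMIs in all, 1 to 5 of them in each vehicle library. The Crabp1 Wif1 FBs gave 8 of the 22, and without them the groups overlapped. With no filter the log2 difference of Fgfr3 in FBs was -2.17 ± 0.93 (SE, edgeR unadjusted p = 0.0291, adjusted p = 0.920). The effect of PBMCsec on the difference between FBs and epithelium was tested as an interaction, and 0 of 9982 genes (0.00%) passed with edgeR, 249 at an unadjusted p under 0.05, none of them an FGF gene.

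**Figure D4:**
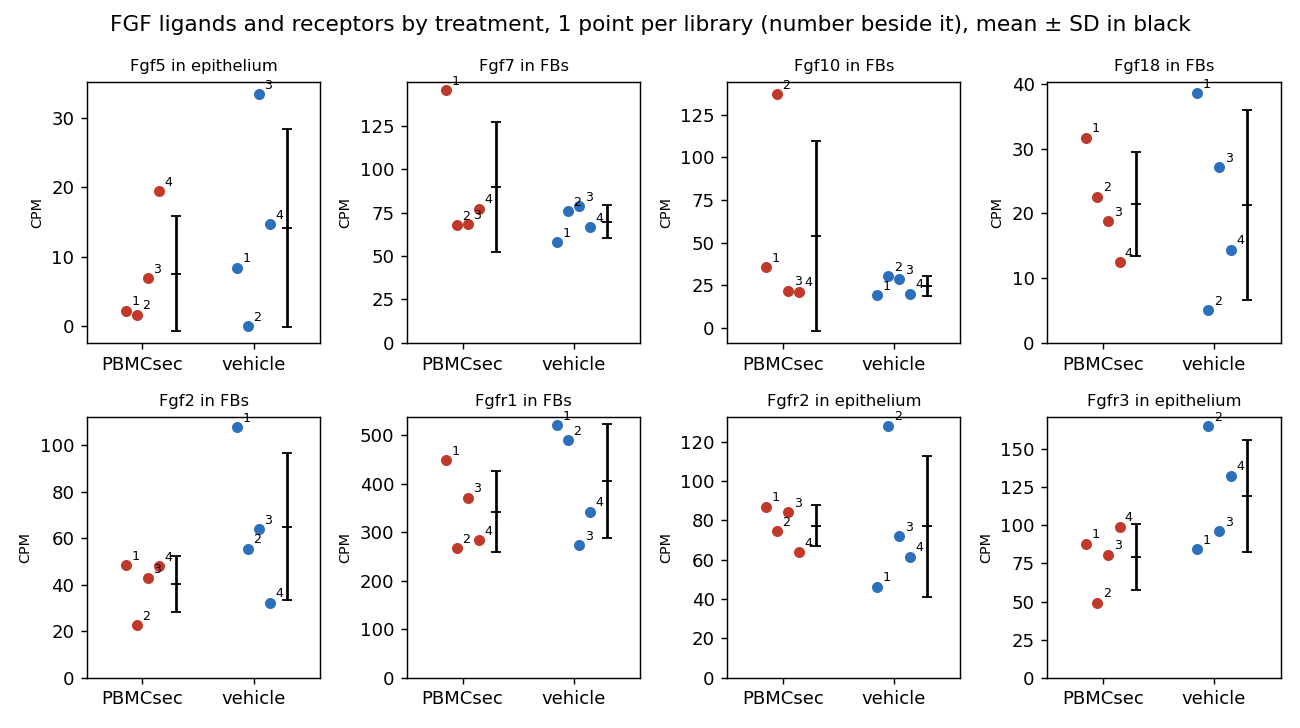
CPM of each ligand and receptor in the class where it was highest, 1 point per library with the library number beside it (PBMCsec red, vehicle blue, 4 of each), and the mean ± SD of the group in black. The groups overlap for all 8 genes, and single libraries stand out for Fgf7 (PBMCsec 1 at 145 CPM) and Fgf10 (PBMCsec 2 at 137 CPM).

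In single clusters, 9 pairs of a gene and a cluster had 3 or more libraries in each group, all of Fgfr1, Fgfr2 or Fgfr3 in basal KCs, Serpinb2 Fosl1 KCs or upper follicle cells. With 3 libraries against 3, the exact permutation test cannot go below 0.1, and no pair could therefore pass 0.05. That smallest value was reached by Fgfr2 in the Serpinb2 Fosl1 KCs, at 119.6 ± 2.87 CPM after PBMCsec and 136 ± 18.3 CPM after vehicle (SD). Adjusted over the 9 pairs, this exact permutation p was 0.6. The groups did not overlap, and the share of all genes apart in this cluster was not counted. Fgfr3 in the same cells was at 72.3 ± 27.4 CPM after PBMCsec and 131 ± 56.1 CPM after vehicle, with overlapping groups (exact permutation p = 0.2).

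Levels over whole libraries need no cell names. Over all kept cells, Fgf7 was at 42.8, 18.9, 26.4 and 18.1 CPM after PBMCsec and at 12.6, 9.22, 18.5 and 13.9 CPM after vehicle, means of 26.6 ± 11.5 and 13.5 ± 3.86 CPM (SD, exact two-sided permutation p = 0.0571). Fgf10 was at 10.7, 37.4, 8.45 and 4.88 CPM after PBMCsec and at 4.18, 3.46, 6.44 and 4.06 CPM after vehicle (exact permutation p = 0.0571). Adjusted over the 8 genes, either p was 0.229. In either case 1 pair of libraries overlapped, and the smallest p that 4 against 4 libraries allow is 0.0286. The log2 ratio of the means was 0.97 for Fgf7, or 0.64 without PBMCsec library 1, and 1.76 for Fgf10, or 0.82 without PBMCsec library 2. When every deposited barcode was counted, Fgf7 was at 16.8 CPM after PBMCsec and 12.8 CPM after vehicle (exact permutation p = 0.371), and Fgf10 at 9.83 and 4.58 CPM (exact permutation p = 0.171). FBs, the main source of both, made up 27.4%, 22.04%, 35.4% and 20.1% of kept cells after PBMCsec and 20.5%, 12.98%, 22.5% and 20.7% after vehicle, and over whole libraries more FBs and more RNA per FB cannot be told apart.

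Fgfr3 over all kept cells was at 38.0 ± 19.7 CPM after PBMCsec and 66.7 ± 33.2 CPM after vehicle (SD, n = 4 each, exact permutation p = 0.171). When every deposited barcode was counted, Fgfr3 was at 53.3, 53.2, 47.4 and 59.1 CPM after PBMCsec and at 60.4, 88.8, 74.2 and 80.1 CPM after vehicle. These groups did not overlap (53.2 ± 4.78 against 75.9 ± 11.9 CPM, exact permutation p = 0.0286, the smallest possible, 0.229 adjusted over the 8 genes). The share of all genes whose groups lie apart was not counted over every barcode, so how common such a gap is there is not known. Epithelial cells, which held most Fgfr3 UMIs, were 37.7%, 20.4%, 39.6% and 50.3% of kept cells after PBMCsec and 16.6%, 37.5%, 58.8% and 55.9% after vehicle, and their part in the difference was not tested. Fgf5, Fgf18, Fgf2, Fgfr1 and Fgfr2 had exact permutation p values from 0.257 to 0.771 for all kept cells and from 0.114 to 0.943 for every barcode.

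Other genes of the FGF pathway were read from 4 lists, none of which was used in the clustering. Of 17 other ligands, 14 had UMIs and only Fgf1 passed the filter, at 164 UMIs in FBs and 156 in epithelium, without a call between the classes. Of 19 other receptors, co-receptors and FGF-binding proteins, 13 were tested and 12 differed between FBs and epithelium, 6 in each direction (median log2 difference 0.38, against -0.04 over all genes). The heparan sulphate proteoglycan Gpc3 was at 322 ± 100.3 CPM in FBs and 7.47 ± 2.55 CPM in epithelium (SD, n = 8), and Gpc6 and Sdc2 were also higher in FBs, by 3.70 ± 0.23 and 3.19 ± 0.13 on the log2 scale (SE). Fgfbp1, a secreted carrier of FGFs, was at 1.42 ± 0.932 CPM in FBs and 342 ± 108 CPM in epithelium (SD, n = 8), and the proteoglycan Sdc1 and the transmembrane protein Flrt3 had log2 differences of -4.30 ± 0.38 and -3.59 ± 0.21 (SE). Of the syndecans named, Sdc2 was thus higher in FBs and Sdc1 in epithelium.

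Of 18 adaptors and kinases, 17 were tested and 11 differed between the classes, 4 higher in FBs and 7 higher in epithelium (median -0.17). The log2 differences were small for the adaptors Shc1 (1.01 ± 0.11, SE) and Frs2 (0.34 ± 0.13), and larger for the GTPase Hras (-2.43 ± 0.12). Of 18 feedback inhibitors and transcriptional targets, 13 were tested and 10 differed, 4 higher in FBs and 6 higher in epithelium (median 0.22). The transcription factor Etv1 had 300 UMIs in FBs and 2 in epithelium, and the inhibitors Il17rd and Spry2 were higher in FBs by 2.59 ± 0.18 and 1.99 ± 0.26 (SE). The transcription factor Etv4 (-4.14 ± 0.27), the phosphatase Dusp6 (-3.83 ± 0.15) and the cyclin Ccnd1 (-3.26 ± 0.17) were higher in epithelium. These shares called lie beside the 68.6% of all genes. Some list genes passed the filter through 1 class, as did some of the 8 genes. Among them were Etv1, Etv4 (20 UMIs in FBs and 861 in epithelium) and Fgfbp1 (26 and 9668). A difference of such genes was set in part by the filter, so the calls of the lists are given as a description. No gene of the 4 lists passed the adjusted threshold for PBMCsec in either class.

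**Figure D5:**
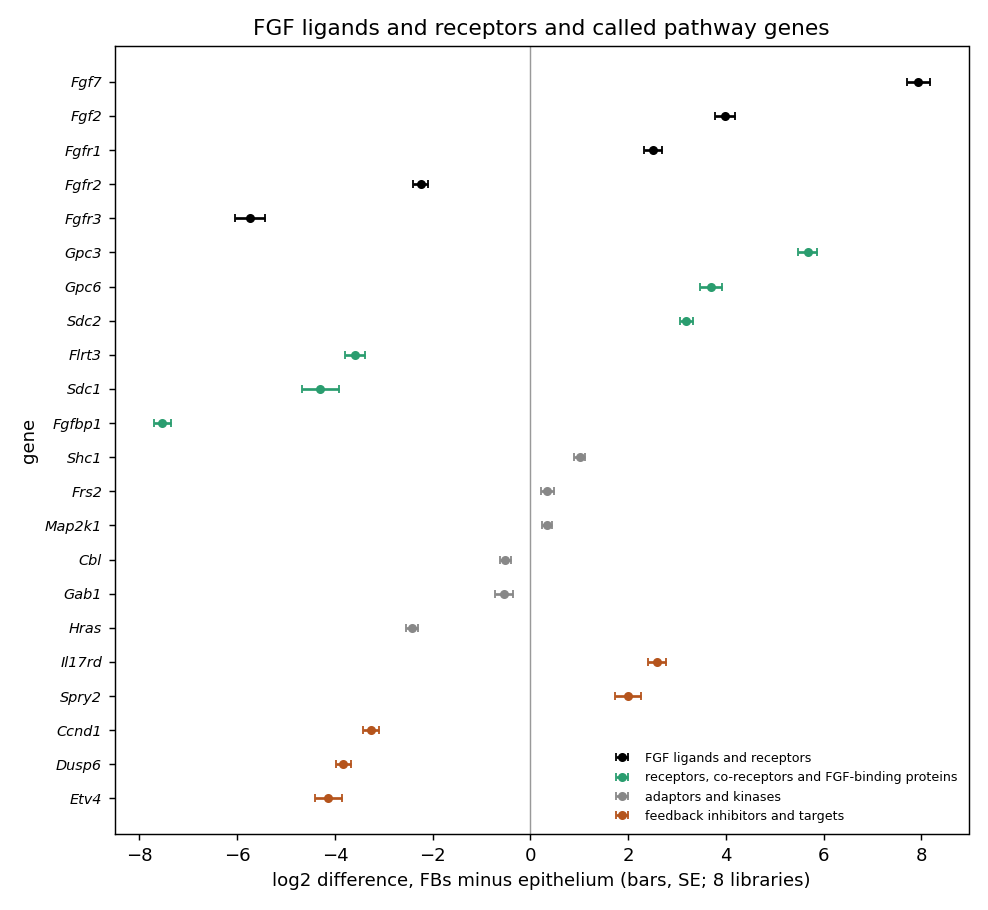
Log2 difference between FBs and epithelium (FBs minus epithelium, points, with bars for the SE, 8 libraries) for called ligands and receptors (black) and for up to 3 called genes per direction of the pathway lists (coloured by list). Fgf10 and Etv1, with 1 and 2 epithelial UMIs, are not drawn. Fgf7 lies farthest right at 7.94 and Fgfbp1 farthest left at -7.53.

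Genes with a like pattern over the 34 clusters were sought among 11542 genes by Pearson's correlation of log2(CPM + 10), a description over clusters that share libraries and depth. Nearest to Fgf7 were the platelet-derived growth factor receptor Pdgfra (r = 0.97), En1 (0.96) and Twist1 (0.96), of which Pdgfra is also a marker used to name FBs, and nearest to Fgf10 were Mdk (0.93), Lrrc15 (0.93) and Prrx2 (0.93). Fgf5 was nearest to Foxe1 (0.94), Csn3 (0.91) and Padi3 (0.89), and Fgf18 to Pcdh20 (0.96). For Fgf2 the list opened with Rorb (0.93) and Larp6 (0.92). Fgfr1 was nearest to Pygo1 (0.88) and Mpdz (0.88), Fgfr2 to the basement membrane collagen Col7a1 (0.89) and the ligand Wnt10a (0.88), and Fgfr3 to Trp63 (0.96), the p63 transcription factor of stratified epithelium. With Spearman's correlation, 1 of the 3 nearest genes of Fgf10 was named again, and 0 of 3 for Fgf5, Fgf7, Fgf2, Fgfr1, Fgfr2 and Fgfr3.

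The study's filter left out unequal shares of the 8 genes. Over all genes, 23.5% of UMIs were in kept cells, where the kept UMIs leave out Gm42418, Gm17056 and Gm26917 and the total holds them. The share was 35.5% for Fgf7, 29.1% for Fgf10, 28.2% for Fgf18, 27.7% for Fgf2 and 27.6% for Fgfr1. It was 20.8% for Fgfr3, 18.5% for Fgfr2 and 13.5% for Fgf5. The 5 genes higher in FBs were thus above the share of all genes and the 3 genes higher in epithelium below it. Of 3689 Fgf5 UMIs in all barcodes, 499 entered the levels given here.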

How the data were processed

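The authors deposited, for each of the 8 libraries, raw UMI counts per gene and barcode. Per the labels these were 10x Genomics 3' libraries, and the submitters' processing notes name Cell Ranger 3.0.2 and mm10, while whether counting used strand is not given in the sources used here. Nothing in the deposited counts had been normalised.

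The study's limits on cells were applied: 500 to 4000 genes, no more than 20000 UMIs and no more than 5% mitochondrial UMIs, and Gm42418, Gm17056 and Gm26917 were removed. The UMI totals behind the levels over whole libraries still held these genes. Libraries were integrated with Seurat 5.3.0 (2000 features, 30 dimensions, resolution 1), with all FGF genes and pathway lists left out of the features. Clusters were named from marker lists. Scrublet called 21 cells (0.341%), too few for a working call, so no doublet was removed and an alternative left out the 5% of cells with the highest scores.

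UMIs were summed per library over FBs and over epithelium, and CPM is the UMI count per 1000000 UMIs of that sum. Sums were tested with edgeR 4.0.16 (quasi-likelihood test, TMM, filterByExpr, Benjamini-Hochberg adjustment over all genes tested, threshold 0.05) in R 4.3.3, with the library as a block between FBs and epithelium. DESeq2 1.42.0 and limma 3.58.1 were alternatives. The script was checked on simulated counts. For treatment, 92.2% of genes changed 4-fold were called in FBs and 89.4% in epithelium. Of genes changed 2-fold, 17.0% and 18.2% were called. Levels over whole libraries, cell classes and clusters were tested with exact permutation tests over libraries (scipy 1.17.1, numpy 2.4.6, Python 3.11.15), whose p-values are given unadjusted with the number of tests. For some results over whole libraries, cell classes and clusters, the value adjusted by Benjamini-Hochberg over the genes or pairs tested is given beside it. Shares carry exact binomial intervals of 95% in the tables, a count of 0 was given the limit of 3 counts, and both cover counting error only.

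The 8 genes and the pathway lists were chosen with earlier results of these data known. Named from a list were the 3 largest called differences in each direction, and for likeness the 3 genes with the highest correlation over clusters of at least 20 cells, for genes with at least 200 UMIs. For Fgf18, 1 of these genes is not reported here. Alternatives changed the test, scaling, filter, library set, mitochondrial limit, doublets, cluster resolution, class and the replicate block.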

Additional observations from a re-analysis of the deposited data

Results flagged for a closer look

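Within each group of 4 libraries, a single library was looked for that lay far from the other 3 (Dixon's criterion at 0.829). Of 47 groups tested, 7 held one. A chance rate of about 1 in 20 holds for independent, normally spread values. These groups share cells, and a group with 3 libraries at 0 and 1 above 0 always meets the criterion. The count of 7 is therefore not read against that rate. Fgf7 in FBs was at 145 CPM in PBMCsec library 1, against 67.7 to 77.3 CPM in the other PBMCsec libraries. In the same library Fgfr2 in FBs was at 31.7 CPM, against 14.4 to 16.1 CPM. Fgf10 in FBs was at 137 CPM in PBMCsec library 2, against 21.2 to 35.6 CPM. Fgfr1 over all kept cells was at 142 CPM in vehicle library 1, against 104 to 109 CPM. The remaining 3 rest on few UMIs: Fgf5 in FBs at 1.25 CPM in PBMCsec library 4 and at 3.43 CPM in vehicle library 4, and Fgf10 in epithelium at 0.378 CPM in PBMCsec library 1, with the other libraries of each group at 0.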

How the results depend on the processing

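Depth limits the treatment comparison, in which single libraries held as few as 27 FBs and 25 epithelial cells. No FGF gene passed the adjusted threshold for treatment under any alternative run. A difference was taken as the same if it kept its direction and side of the threshold, and a count of calls if it stayed near its main value. For whole libraries the threshold was on the unadjusted exact permutation p. With 1 library left out, 273 values stayed the same, 13 turned direction and 1 gained a call. The whole-library tests among them compared 3 with 4 libraries, where the exact permutation p cannot go below 0.0571. None of these could gain a call, so their staying on that side of the threshold was set in advance. Under other settings 242 stayed the same, 27 with no test moved (the shares of cells and the lists of genes with a like pattern), 10 turned direction and 3 gained calls. Of these 3, 1 was Fgfr3 over every barcode, by its unadjusted p only. In epithelium, DESeq2 called 1 gene where edgeR called 0, and without the filter on low counts the interaction called 13 genes. For Fgfr3 over every barcode the log2 difference was -0.51, and for Fgfr1 it turned from 0.32 to -0.027.

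Leaving out 1 library at a time, the FBs and epithelium differed in 6200 to 7279 genes, the neighbouring classes in 9 to 13 of the pairs, and the interaction called 0 to 1 gene, the 1 without vehicle library 4. Pairs with ECs had 6 libraries, and with 1 of these left out the exact test cannot pass 0.05. Part of the fall in called pairs was thus set by the test. Log2 differences that turned sign ranged from -0.23 to 0.28 for Fgf18 in FBs, -0.093 to 0.41 for Fgfr2 in epithelium and -1.53 to 0.20 for the interaction of Fgf10, which has 1 UMI in epithelium. Over kept cells they ranged from -2.49 to 0.052 for Fgf5, -0.37 to 0.29 for Fgf2 and -0.49 to 0.15 for Fgfr2. Treatment differences also turned in the libraries numbered 3 and 4 alone (Fgf10 -0.11, Fgf18 -0.32 and Fgfr1 0.17 in FBs, Fgf2 -0.020 in epithelium) and for Fgfr1 without the Crabp1 Wif1 FBs (0.020). Fgfr2 in epithelium turned in the libraries numbered 1 and 2 (-0.14), at a mitochondrial limit of 10% (-0.12) and in KCs alone (-0.030). The cause was not tested.

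With all UMIs of a cell, and then with at least 2 UMIs required, the share of cells was 11.4% and 5.601% for Fgf5 in HFs, 40.2% and 16.1% for Fgf7, 16.7% and 5.398% for Fgf10, 14.1% and 3.47% for Fgf18, 28.1% and 8.93% for Fgf2 and 84.4% and 66.3% for Fgfr1 in FBs, 51.3% and 26.3% for Fgfr2 in KCs and 45.6% and 23.4% for Fgfr3 in HFs.

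Same-numbered libraries of the 2 groups correlated at -0.01 to 0.24 in FBs and -0.01 to 0.48 in epithelium. The labels do not say what the numbers share, and the main tests did not read them as pairs. The PBMCsec library correlated best with the vehicle library of its own number in 3 of 4 cases in FBs and in 3 of 4 in epithelium. With the replicate block, 0 genes were called in FBs and 0 in epithelium, and Fgf18 in FBs turned to -0.10. Without the library as a block (no replicate block), 6196 genes differed between FBs and epithelium, against 6850 with it.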
